A study of Mus musculus with 20 samples.

Results

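The nuclear genes of the oxidative phosphorylation complexes were followed in bone marrow cells of irradiated mice. All genes were taken whose symbol starts with Ndufa, Ndufb, Ndufc, Ndufs, Ndufv, Uqcr, Cox4, Cox5, Cox6, Cox7, Cox8 or Atp5, or is Sdha, Sdhb, Sdhc or Sdhd, and that had a probe set carrying that symbol alone. This gave 90 genes of the 18193 that could be compared, each represented by its brightest probe set. They were 34 genes of complex I, 8 complex I assembly factors (the Ndufaf genes), 4 of complex II, 8 of complex III, 19 of complex IV and 17 of complex V. Ndufa4 and Ndufa4l2, which carry a complex I name, were counted with complex IV, where the Ndufa4 protein is now placed.

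Total RNA came from cells that the labels give as VE-cadherin+ endothelial cells of the bone marrow of adult C57/Bl6 mice, 8 to 10 weeks old. There were 4 groups of 5 Affymetrix arrays: mice that were not irradiated, and mice 6 hours, 24 hours and 14 days after total body irradiation with 5 Gy. The labels name no transgene or other agent. They number the arrays within a group as biological replicates but leave unsaid if 1 mouse or a pool stands behind each, so the p-values measure the spread between these samples. The study's title places it as a profile of the endothelial response to ionizing radiation.

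Oxidative phosphorylation takes place in the inner mitochondrial membrane. Complex I takes electrons from NADH and complex II takes them from succinate, complex III passes them from ubiquinol to cytochrome c, complex IV passes them to oxygen, and complex V, the ATP synthase, uses the proton gradient that complexes I, III and IV build to make ATP. Most subunits are encoded in the nucleus, while a few core subunits of all but complex II are encoded in mitochondrial DNA and are not among these genes. Endothelial cells are known to make much of their ATP by glycolysis, whereas red cell precursors carry many mitochondria, which reticulocytes clear as they mature.

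Signals are in the arrays' linear units as deposited, and changes are log2 differences of log2(signal + 1), with limma's standard error. A gene passed the test, and is then said to have risen or fallen, when limma's p (two-sided), adjusted by the Benjamini-Hochberg method for 18193 genes, was under 0.05. On all 20 arrays 83 of the 90 genes lay above background, taken per array from its bacterial control probe sets. The 7 others were Cox4i2, Cox7a1, Cox7b2, Cox7c, Cox8b, Cox8c and Ndufaf1. Signals of different genes come from different probes and are not set against each other.

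The labelled cell type was checked against its markers. The 12 endothelial markers were above background in every group, with a mean log2 signal of 10.07 ± 0.06 in non-irradiated cells, 11.56 ± 0.10 at 6 hours, 10.64 ± 0.04 at 24 hours and 9.29 ± 0.06 at day 14 (SD, n = 5 each). Markers of other cells were present as well: the 10 erythroid markers had a mean log2 signal of 11.53 ± 0.07, 7.92 ± 0.54, 6.21 ± 0.27 and 12.08 ± 0.05 in the same groups, and their summed signal ranged from 41938 to 45214, 3943 to 8438, 1904 to 2517 and 51946 to 63055. The erythroid genes Rhag and Sptb were at background on all 24 hour arrays. The 9 cycling markers stood at 11.67, 9.99, 10.00 and 12.03, and the 11 granulocyte markers at 12.92, 12.31, 12.99 and 12.74. The median signal of an array was 177 ± 10.1 in non-irradiated cells, 149 ± 9.23 at 6 hours, 135 ± 5.18 at 24 hours and 94.5 ± 8.38 at day 14, although the trimmed mean of each array was 500. Controls of the arrays differed as well: the mean log2 signal of the hybridization controls was 12.77, 12.84, 12.17 and 12.14 in non-irradiated cells, at 6 hours, at 24 hours and at day 14, and the 3′ minus 5′ difference of the Gapdh control sets was 1.33, 1.58, 0.77 and 0.89 (log2). For both measures no array of the non-irradiated or 6 hour groups overlapped an array of the 24 hour or day 14 groups, and their part in the results was not tested. In RNA of mixed cells, fewer cells of a type and less RNA per cell cannot be told apart.

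**Figure D1:**
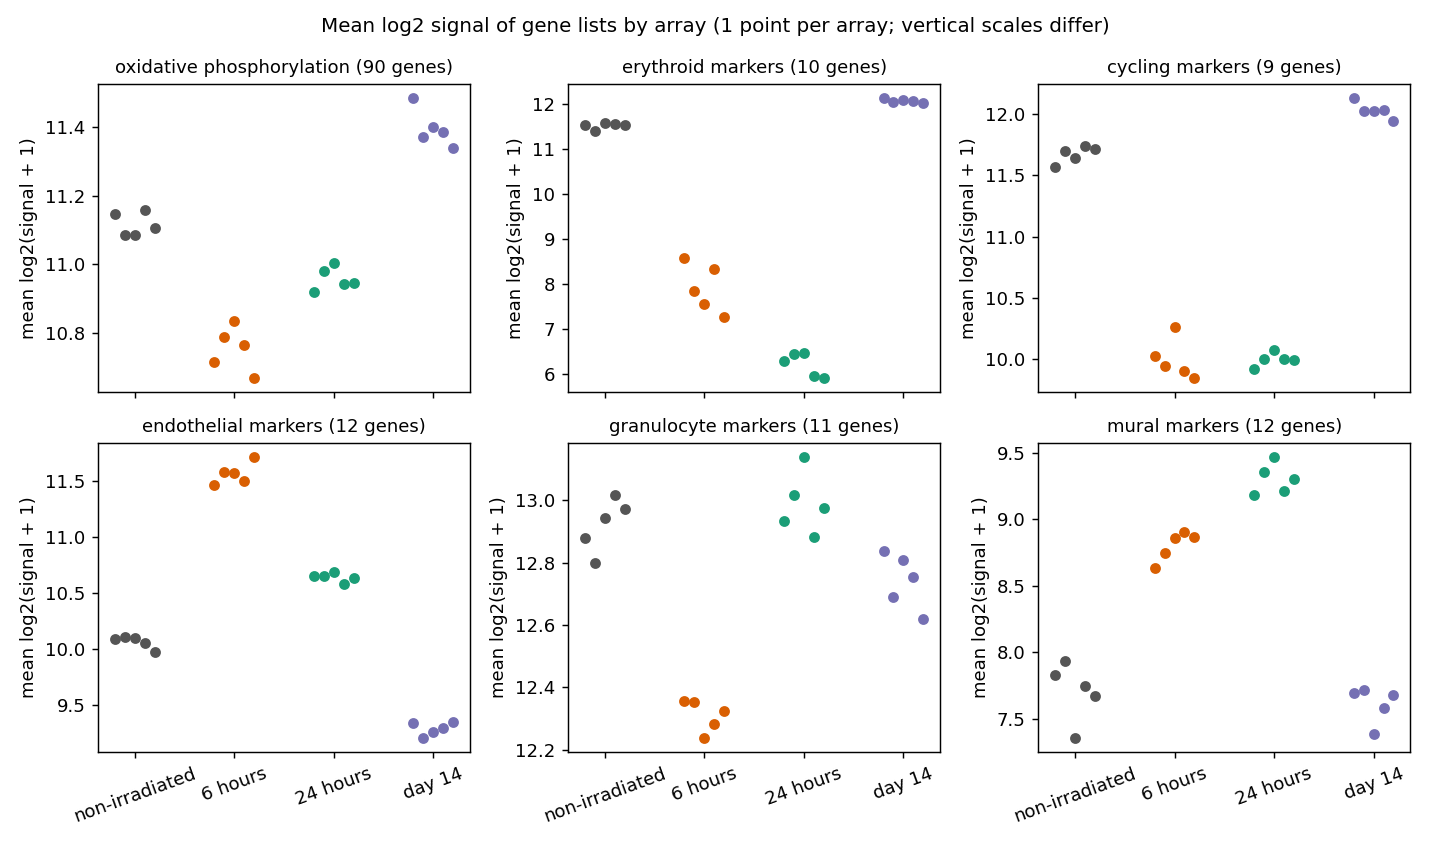
Mean log2(signal + 1) on each of the 20 arrays (1 point per array, groups on the horizontal axis) for the 90 oxidative phosphorylation genes and 5 marker lists, with a separate vertical scale per panel. The 90 genes, the erythroid list and the cycling list all have their highest arrays at day 14, while the endothelial list has its lowest there.

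Promoter windows are shown because many of these genes moved together and because 3 factors, NRF1, the ETS factor GABP and YY1, are known in mammals to bind promoters of respiratory chain genes. RefSeq windows of 250 bases before to 50 bases after the start of the gene (build GRCm38.p6) were at hand for 74 of the 90 genes, 5 of them with a pair of windows, 79 windows in all. Windows were searched on both strands for GCGC followed by any base and TGCGC (NRF1), CCGGAAG (ETS) and AAGATGGC (YY1), and matches of different motifs may overlap. The NRF1 letters were in 18 of the 79 windows (22.8%, against 4.60% of all 32851 windows), the ETS letters in 19 (24.1%, against 8.86%), the YY1 letters in 10 (12.7%, against 2.75%), and at least 1 of them in 41 (51.9%, against 14.7%). Below is 1 window per complex, picked by hand, 5′ to 3′ on the strand of the gene with matches in capitals. Ndufs3 holds 2 ETS matches, Sdhd holds 1 NRF1 and 1 ETS match, and Uqcrc1 holds 2 NRF1 matches. Atp5pb holds 1 YY1 match, and Cox6b2 holds none of the 3. Whether matches go with the course of a gene over time was not tested.
Ndufs3 (chr2:90904672-90904971, minus strand): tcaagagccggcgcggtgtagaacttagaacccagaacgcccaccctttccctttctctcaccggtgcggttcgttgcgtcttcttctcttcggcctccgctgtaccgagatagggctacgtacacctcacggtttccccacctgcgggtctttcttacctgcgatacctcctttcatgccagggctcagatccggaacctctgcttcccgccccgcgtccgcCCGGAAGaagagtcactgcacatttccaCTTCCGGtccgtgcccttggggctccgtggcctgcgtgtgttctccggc
Sdhd (chr9:50603800-50604099, minus strand): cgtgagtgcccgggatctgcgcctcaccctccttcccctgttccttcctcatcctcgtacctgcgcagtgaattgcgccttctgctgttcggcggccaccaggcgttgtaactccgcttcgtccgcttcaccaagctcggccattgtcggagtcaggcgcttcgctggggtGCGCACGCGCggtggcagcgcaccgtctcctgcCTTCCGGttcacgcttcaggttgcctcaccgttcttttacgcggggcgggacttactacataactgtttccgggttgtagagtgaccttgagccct
Uqcrc1 (chr9:108936398-108936697, plus strand): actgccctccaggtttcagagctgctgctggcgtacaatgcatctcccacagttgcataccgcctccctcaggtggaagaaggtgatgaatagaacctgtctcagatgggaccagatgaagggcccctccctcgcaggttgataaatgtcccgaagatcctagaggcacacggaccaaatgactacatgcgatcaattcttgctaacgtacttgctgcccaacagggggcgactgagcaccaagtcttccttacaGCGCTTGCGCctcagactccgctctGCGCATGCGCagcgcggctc
Cox6b2 (chr7:4753045-4753344, minus strand): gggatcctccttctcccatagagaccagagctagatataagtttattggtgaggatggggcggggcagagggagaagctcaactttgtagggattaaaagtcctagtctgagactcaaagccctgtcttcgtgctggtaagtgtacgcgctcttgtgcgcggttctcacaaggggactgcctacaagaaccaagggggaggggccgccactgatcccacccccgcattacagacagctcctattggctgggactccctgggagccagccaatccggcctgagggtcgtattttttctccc
Atp5pb (chr3:105959214-105959513, minus strand): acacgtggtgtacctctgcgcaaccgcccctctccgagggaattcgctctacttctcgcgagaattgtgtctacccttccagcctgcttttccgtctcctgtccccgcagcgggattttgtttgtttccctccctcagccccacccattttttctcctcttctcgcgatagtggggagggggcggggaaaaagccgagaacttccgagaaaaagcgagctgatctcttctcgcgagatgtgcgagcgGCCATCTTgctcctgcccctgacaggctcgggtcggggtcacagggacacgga
A match describes the letters in the window and not a bound site.

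At 6 hours, oxidative phosphorylation genes were mostly lower than in non-irradiated cells. Of the 90 genes 43 fell and 2 rose, where 14.5% of all genes tested fell and 12.9% rose. The median log2 change was -0.38 over the 90 genes and -0.02 over all genes. Falls were found in all complexes: 12 of 17 genes of complex V, 5 of 8 of complex III, 15 of 34 of complex I, 2 of 4 of complex II, 6 of 19 of complex IV and 3 of 8 assembly factors. The 2 genes that rose, Cox6b2 and Cox7a2l, both belong to complex IV. Without replicate 2 of 6 hours the count of higher genes was 4. For 25 genes all 5 arrays of 6 hours lay below all 5 of the non-irradiated cells. How many of all genes were separated in this way was not counted.

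At 24 hours fewer genes differed. Here 24 fell and 4 rose, against 13.8% of all genes lower and 15.7% higher, with a median log2 change of -0.14 (-0.07 over all genes). The falls were spread unevenly, with 9 of 19 in complex IV, 7 of 17 in complex V, 3 of 8 in complex III, 2 of 4 in complex II and 3 of 34 in complex I. The 4 that rose were Ndufs5, Ndufa3, Ndufaf5 and Cox4i2, a count that was 2 without replicate 5 of the non-irradiated cells or without replicate 2, 3 or 5 of 24 hours. Compared with 6 hours directly, 25 genes were higher at 24 hours and 5 were lower (13.7% and 10.1% of all genes). Among the higher ones were 17 of the 43 genes that had fallen at 6 hours. That joint count was not taken over all genes. The 5 lower genes became 9 without replicate 2 of 6 hours and 3 without replicate 2 of 24 hours.

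At day 14 the picture was the opposite. Relative to non-irradiated cells 49 genes rose and 5 fell, against 9.47% of all genes higher and 13% lower (22.4% in either direction), and the median log2 change was 0.41 (-0.18 over all genes). Rises were seen in 23 of 34 genes of complex I, 6 of 8 of complex III, 10 of 17 of complex V, 2 of 4 of complex II, 2 of 8 assembly factors and 6 of 19 of complex IV. Complex IV also held 4 of the 5 genes that fell (Cox6a2, Cox7b2, Cox7c and Cox8c), of which Cox7b2 was at or under background on all 5 day 14 arrays and Cox8c on 3. Its median change was -0.02, which other scalings turned to 0.24 (quantile) and 0.88 (centred). The median was 0.47 in complex I, 0.64 in complex III and 0.35 in complex V. The count of genes that fell was 2 without replicate 2 of the non-irradiated cells, and 3 without replicate 1 of the non-irradiated cells or replicate 2, 3 or 4 of day 14. For 55 genes all day 14 arrays lay above all non-irradiated arrays, a count that was likewise not taken over all genes. Against 24 hours, 63 of the 90 genes were higher at day 14 and 2 were lower (15.2% and 21.7% of all genes), with 16 of 17 genes of complex V and 7 of 8 of complex III among the higher ones. The lower ones were 1 gene in place of 2 without replicate 2, 3 or 5 of 24 hours or replicate 2, 3 or 4 of day 14.

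**Figure D2:**
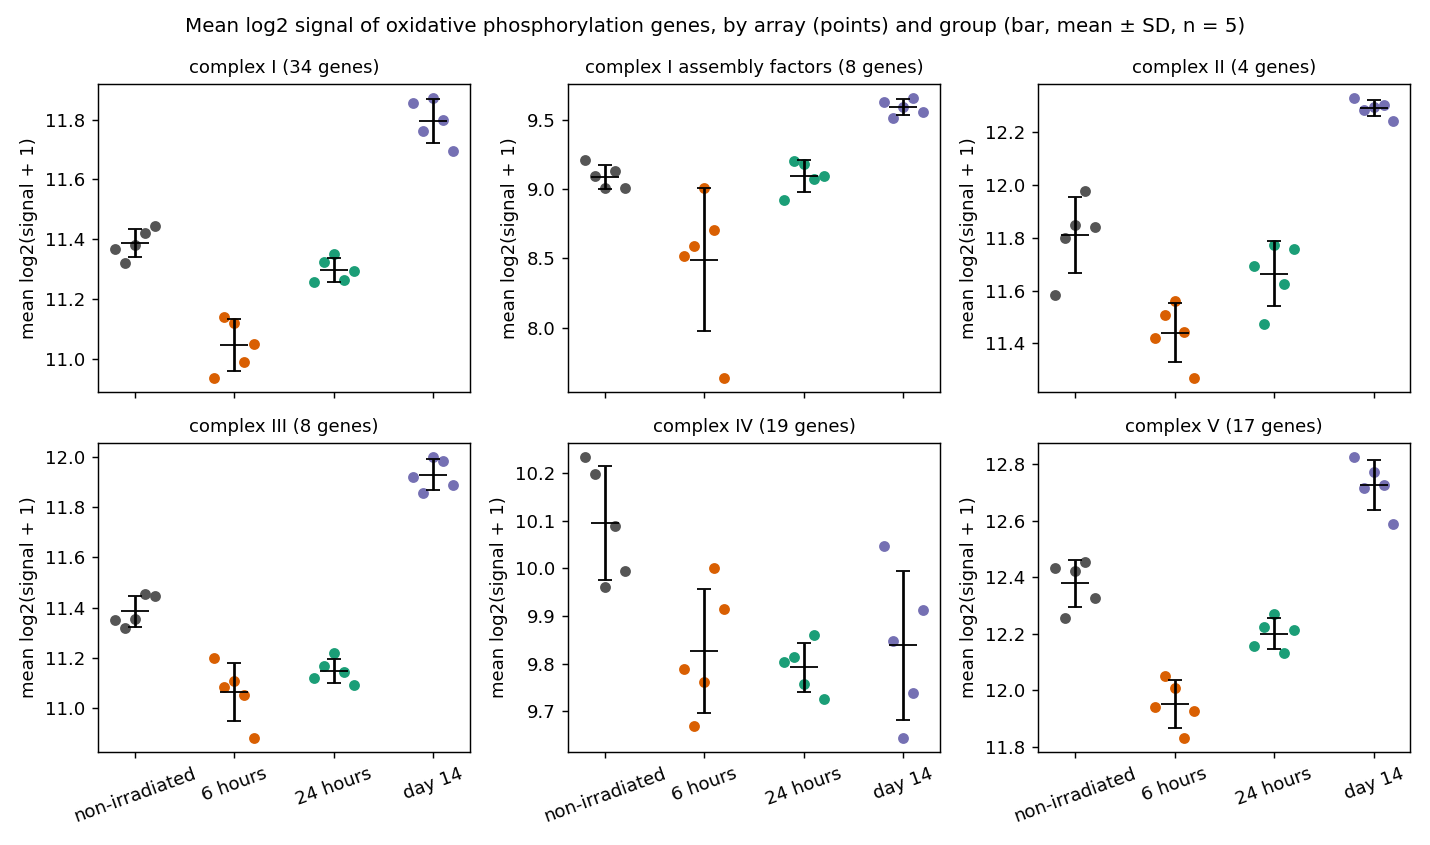
Mean log2(signal + 1) of the genes of each complex on each array (points), with the group mean and SD (bars, n = 5), in 4 groups along the horizontal axis and with a separate vertical scale per panel. In complexes I, II, III and V all 5 day 14 arrays lie above all others, while in complex IV the day 14 mean of 9.84 is below the non-irradiated mean of 10.09, a gap that is absent without Cox7b2 and Cox8c (10.69 in both groups).

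Of the 90 genes 80 differed among the 4 groups by limma's F test, against 55.1% of all genes. The lowest mean was at 6 hours for 58 genes and the highest was at day 14 for 69, with 51 genes meeting both. There were 26 genes that fell at 6 hours and rose at day 14 relative to the same non-irradiated arrays. Another 15 genes passed in neither of these nor at 24 hours. Apart from that of the F test, these counts were not taken over all genes.

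These counts depend on how arrays are scaled. Centring each array on its own median moved the median change of all genes to 0.23 at 6 hours, 0.31 at 24 hours and 0.72 at day 14. The counts then became 11 lower and 6 higher at 6 hours (8.89% and 19.4% of all genes), 1 lower and 27 higher at 24 hours (6.26% and 27.2%), and 1 lower and 78 higher at day 14 (2.53% and 45.1%). Relative to the median of all genes, the median of the 90 genes was at -0.36 at 6 hours. It was at -0.07 at 24 hours and 0.59 at day 14. Centring shifts all genes of an array alike, so it cannot alter these values. With quantile normalization they were -0.52, -0.29 and 0.15. At 24 hours the median change of the 90 genes itself was 0.24 with centring and -0.16 with quantile normalization, so centring alone turned its sign. Quantile normalization gave 29 lower and 4 higher at 24 hours (12.3% and 19.1% of all genes). At day 14 it gave 2 lower and 35 higher (6.24% and 9.78%).

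Marker lists also differed between the groups. All 10 erythroid markers fell at 6 and at 24 hours, and at day 14 Alas2, the first enzyme of haem synthesis in red cell precursors, rose by 1.25 ± 0.13 on the log2 scale while the other 9 did not pass. All 9 cycling markers fell at 6 and 24 hours, and 4 rose and 1 fell at day 14. Endothelial markers went the other way, with 11 of 12 higher at 6 hours, 6 higher at 24 hours, and 8 lower and 1 higher at day 14. They were not alone in this. Of 6 megakaryocyte markers 6 were higher at 6 hours, 3 higher at 24 hours and 3 lower at day 14, with 0 in the other direction each time. Cdh5 itself had a mean signal of 3186 ± 494 in non-irradiated cells, then 8954 ± 1263 (6 hours), 4891 ± 188 (24 hours) and 1293 ± 270 (day 14), with the SD over 5 arrays. At 24 hours, where the erythroid sum was lowest, fewer of the 90 genes were called lower than at 6 hours. For 24 against 6 hours directly, 8 of the 10 erythroid markers were lower and 0 higher (median log2 difference -1.60). Of the 90 genes 25 were higher and 5 lower there. For day 14 against 24 hours all 10 erythroid markers were higher (median log2 difference 5.98), and 63 of the 90 genes were higher and 2 lower. The part of erythroid or cycling cells in the changes of the 90 genes was not tested.

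**Figure D3:**
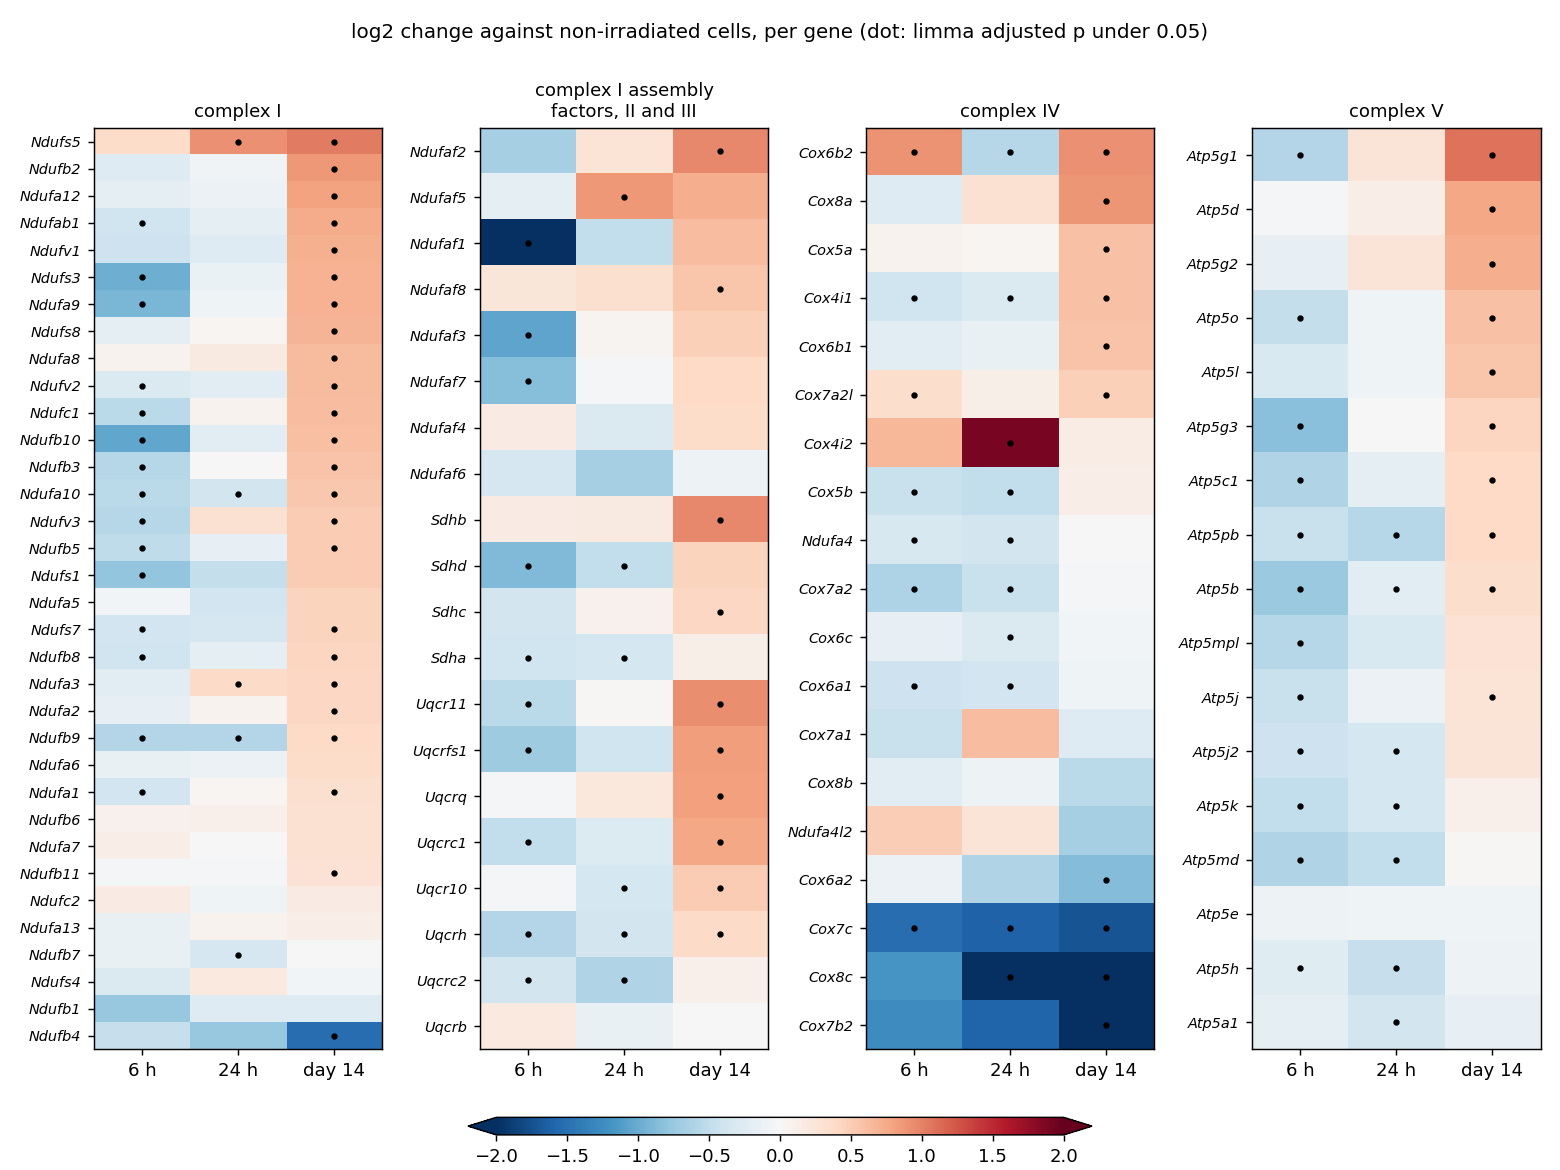
Fitted log2 change against non-irradiated cells of each of the 90 genes (rows, by complex, ordered by the day 14 change) at 6 hours, 24 hours and day 14 (columns), on a colour scale that ends at 2 in each direction, with a dot where limma's adjusted p is under 0.05. Blue columns at 6 hours and red columns at day 14 run through complexes I, III and V, whereas the lower rows of complex IV stay blue at day 14.

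The largest fall of complex I at 6 hours was that of Ndufb10, a subunit of its membrane arm. Ndufb10 had a signal of 4488, 3827, 4176, 5257 and 4956 on the non-irradiated arrays, 1577, 1496, 2768, 3094 and 2496 at 6 hours, 4195, 3697, 3754, 4202 and 3620 at 24 hours, and 7092, 6681, 6786, 7309 and 6422 at day 14. The 6 hour arrays were all the lowest and the day 14 arrays all the highest, and the 24 hour arrays overlapped the non-irradiated ones. The log2 change was -1.04 ± 0.15 at 6 hours (adjusted p = 5.2e-06), -0.22 ± 0.15 at 24 hours (adjusted p = 0.31) and 0.60 ± 0.15 at day 14 (adjusted p = 0.0049).

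Ndufs3, a core subunit of the arm that takes up electrons, followed the same course. Its signal was 2133, 2059, 2279, 2147 and 1866 in non-irradiated cells, 1060, 1695, 1090, 976 and 715 at 6 hours, 1880, 1699, 2249, 1895 and 1853 at 24 hours, and 3172, 3459, 3617, 3437 and 3342 at day 14. Neither the 6 hour nor the day 14 arrays overlapped the non-irradiated arrays. Ndufs3 changed by -0.97 ± 0.15 at 6 hours (adjusted p = 1.4e-05) and 0.70 ± 0.15 at day 14 (adjusted p = 0.0015), and by 0.84 ± 0.15 at 24 against 6 hours. Its window with 2 ETS matches stands above.

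The iron-sulphur subunit Ndufs1 and the flavoprotein Ndufv1, where NADH is oxidized, varied more between 6 hour arrays. Ndufs1 had a signal of 630, 2298, 785, 469 and 1134 at 6 hours, against 1519, 1570, 1485, 1884 and 1422 in non-irradiated cells, so that 1 array of 6 hours stood above all non-irradiated arrays. Its fall of 0.79 ± 0.25 on the log2 scale (adjusted p = 0.019) was not called without replicate 1 or 4 of 6 hours (-0.66 and -0.56) or replicate 4 of the non-irradiated cells (-0.73), nor with arrays centred on their medians (-0.54). Ndufv1 ranged from 1350 to 4102 at 6 hours, against 2697 to 3411 in non-irradiated cells, and did not pass there (-0.42 ± 0.20, adjusted p = 0.13). At day 14 Ndufv1 had 5424, 4460, 5512, 4934 and 4482, all above the non-irradiated arrays, and rose by 0.71 ± 0.20 (adjusted p = 0.012), a call that quantile normalization ended (0.50).

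Some subunits of complex I left this course. Ndufs5, an accessory subunit, had a signal of 972, 1017, 925, 919 and 928 in non-irradiated cells, 911, 1166, 1210, 2521 and 864 at 6 hours, 1485, 1887, 2108, 1844 and 1659 at 24 hours, and 2020, 2005, 1696, 2022 and 2034 at day 14. It was above all non-irradiated arrays already at 24 hours, by 0.91 ± 0.19 (adjusted p = 0.00062), and at day 14 by 1.04 ± 0.19 (adjusted p = 0.00038). Ndufb9 fell at both early times, by 0.59 ± 0.10 at 6 hours (adjusted p = 5.2e-05) and 0.58 ± 0.10 at 24 hours (adjusted p = 5.7e-05), and had the largest difference of complex I between day 14 and 24 hours (0.98 ± 0.10, adjusted p = 1.6e-08). Its day 14 rise over non-irradiated cells of 0.40 ± 0.10 did not pass with quantile normalization (0.23) and was -0.56 when its probe sets were averaged, and its 24 hour fall did not pass with arrays centred (-0.20).

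Ndufv3, an accessory subunit of the same arm as Ndufv1, fell by 0.57 ± 0.14 at 6 hours (adjusted p = 0.003; -0.33 and not called with arrays centred) and was 0.89 ± 0.14 higher at 24 than at 6 hours (adjusted p = 4.2e-05). Ndufa3 rose by 0.38 ± 0.14 at 24 hours (adjusted p = 0.04), but 7 of the 10 fits that left out a compared array did not call it, at 0.33 to 0.39. The single gene of complex I that fell at day 14 was Ndufb4, at a dim probe set with a signal of 121, 55.1, 116, 89.1 and 82.0 at day 14, against 136, 360, 206, 241 and 467 in non-irradiated cells. This fall of 1.52 ± 0.48 (adjusted p = 0.024) was not called with quantile normalization (-0.74), with arrays centred (-0.62), or without replicate 2 or 5 of the non-irradiated cells or replicate 2 of day 14 (-1.40, -1.31 and -1.35).

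The assembly factors, which build complex I and are not part of it, had the widest spread at 6 hours, where their mean log2 signal ran from 7.64 to 9.01 over the arrays. Ndufaf1 had a signal of 140, 113, 143, 61.3 and 1.55 at 6 hours, against 194, 293, 147, 232 and 255 in non-irradiated cells. All 6 hour arrays were lower, but replicate 5 stood far below the others and at background. The fitted change of -2.08 ± 0.68 (adjusted p = 0.022) was not called without replicate 2 of the non-irradiated cells (-1.98), and without replicate 5 of 6 hours it was -0.999 and still called. Ndufaf3 fell by 1.06 ± 0.32 at 6 hours (adjusted p = 0.014), with signals of 120, 456, 317, 325 and 102 at 6 hours, against 650, 541, 434, 340 and 444 in non-irradiated cells, which overlap, and did not pass with arrays centred (-0.81). Ndufaf5 rose by 0.87 ± 0.30 at 24 hours (adjusted p = 0.031), but was not called without replicate 5 of the non-irradiated cells (0.52) or without any of replicates 2 to 5 of 24 hours (0.84 to 0.87).

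**Figure D4:**
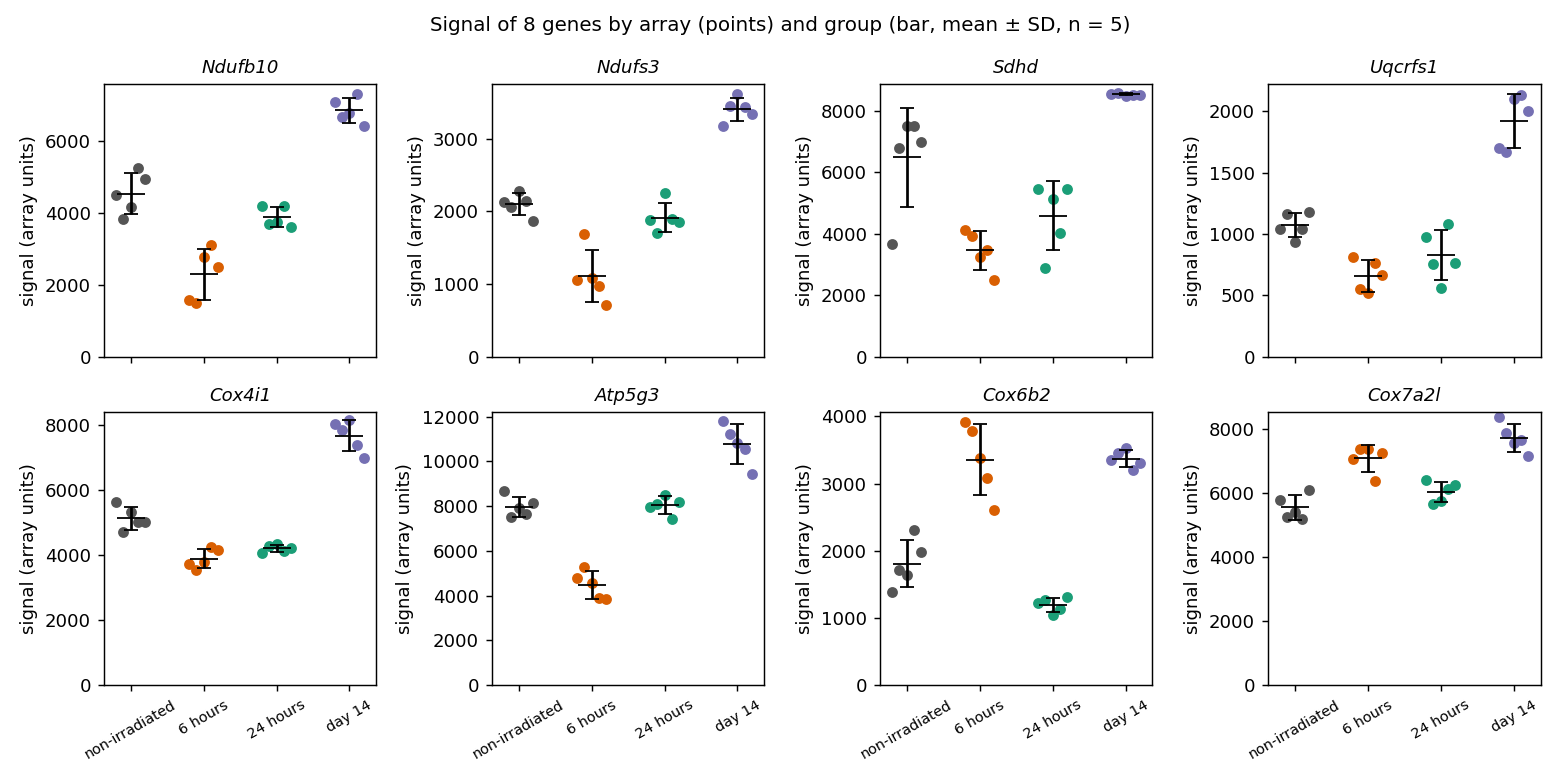
Signal (linear array units, axis from 0) of 8 genes on each array (points) with the mean and SD of each group (bars, n = 5), in 4 groups along the horizontal axis. Ndufb10, Ndufs3, Uqcrfs1 and Atp5g3 have their lowest mean at 6 hours and their highest at day 14, and Cox6b2 has its lowest mean at 24 hours.

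All 4 genes of complex II, which also serves as succinate dehydrogenase of the citric acid cycle, were measured. The membrane anchor Sdhd had a signal of 4122, 3932, 3233, 3478 and 2498 at 6 hours, against 3660, 6794, 7508, 7485 and 6974 in non-irradiated cells. The groups overlap through a single non-irradiated array, and the fall was 0.88 ± 0.18 (adjusted p = 0.00035). At day 14 Sdhd lay between 8486 and 8572 on all 5 arrays, above every non-irradiated array, with a change of 0.44 ± 0.18 that did not pass (adjusted p = 0.073). Its promoter window is the one shown above with both an NRF1 and an ETS match.

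The flavoprotein Sdha, which oxidizes succinate, had a signal of 7310, 8305, 6301, 7324 and 6799 at 6 hours and 7806, 7573, 7531, 6777 and 7604 at 24 hours, against 9233, 9129, 9274, 9840 and 9866 in non-irradiated cells. Neither time overlapped the non-irradiated arrays, and Sdha fell by 0.40 ± 0.07 (adjusted p = 0.00011) and 0.35 ± 0.07 (adjusted p = 0.00052), calls that centring on array medians ended (-0.15 and 0.04). The iron-sulphur subunit Sdhb stayed within 0.17 of non-irradiated cells at both early times and then rose at day 14, with 2821, 2853, 3179, 3080 and 2895 at day 14, against 1669, 1456, 1228, 1938 and 1440 in non-irradiated cells. Its day 14 change was 0.95 ± 0.15 (adjusted p = 4.3e-05), with no overlap. The second anchor, Sdhc, rose by 0.41 ± 0.15 at day 14 (adjusted p = 0.045), which was not called with quantile normalization (0.22) or in 13 of 20 fits that left out an array (0.36 to 0.45).

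In complex III, Uqcrfs1, the Rieske iron-sulphur protein that takes electrons from ubiquinol, had a signal of 1043, 1159, 936, 1038 and 1176 in non-irradiated cells, 816, 548, 516, 761 and 663 at 6 hours, 978, 757, 561, 1084 and 760 at 24 hours, and 1702, 1666, 2104, 2135 and 2000 at day 14. All 6 hour arrays were below and all day 14 arrays above the non-irradiated ones. It fell by 0.71 ± 0.17 at 6 hours (adjusted p = 0.0022) and rose by 0.84 ± 0.17 at day 14 (adjusted p = 0.00092), and its difference of 1.24 ± 0.17 between day 14 and 24 hours (adjusted p = 1.8e-06) was the largest in complex III.

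The core proteins Uqcrc1 and Uqcrc2, which frame complex III on the matrix side, both fell at 6 hours. The fall was 0.36 ± 0.10 for Uqcrc2 (adjusted p = 0.0084; -0.11 and not called with arrays centred). It was 0.50 ± 0.16 for Uqcrc1 (adjusted p = 0.022), which was not called with arrays centred (-0.25) or without replicate 1 or 2 of 6 hours (-0.43 each). Uqcrc2 was at 2453, 3144, 2762, 2633 and 2434 at 24 hours, against 4304, 3779, 3944, 4236 and 4008 in non-irradiated cells, without overlap. It changed by -0.60 ± 0.10 at 24 hours (adjusted p = 4.8e-05), -0.22 with arrays centred and then not called, and by 0.10 ± 0.10 at day 14 (adjusted p = 0.51). Uqcrc1 changed by -0.27 ± 0.16 at 24 hours (adjusted p = 0.23) and rose by 0.77 ± 0.16 at day 14 (adjusted p = 0.0013), with 2043 to 2541 at day 14, against 1236 to 1402 in non-irradiated cells. Uqcr11, a small subunit, rose by 0.93 ± 0.14 at day 14 (adjusted p = 4.3e-05), with all 5 arrays between 2827 and 2995, against 1404 to 1759 in non-irradiated cells. Uqcrb was the single gene of complex III called in no comparison with non-irradiated cells.

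Complex IV holds several subunits with paralogs that are used in different tissues, and here its genes moved apart. Cox4i1, the widely expressed form of subunit IV, had a signal of 5625, 4691, 5305, 5019 and 5011 in non-irradiated cells, 3732, 3539, 3787, 4232 and 4136 at 6 hours, 4052, 4271, 4334, 4132 and 4208 at 24 hours, and 8016, 7829, 8125, 7377 and 6963 at day 14. Both early groups lay wholly below and day 14 wholly above the non-irradiated arrays. The changes were -0.40 ± 0.08 (adjusted p = 0.00018), -0.29 ± 0.08 (adjusted p = 0.0046) and 0.58 ± 0.08 (adjusted p = 4.2e-06). With arrays centred the early ones were -0.15 and 0.10.

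Cox4i2, the form known from lung and from oxygen-sensing cells, was at 322, 333, 485, 406 and 425 at 24 hours, against 291, 70.1, 137, 48.7 and 89.6 in non-irradiated cells. All 24 hour arrays were higher, and the fitted rise was 1.89 ± 0.59 (adjusted p = 0.016), not called without replicate 4 of the non-irradiated cells (1.62). At day 14 Cox4i2 had 108, 95.3, 80.3, 138 and 182, which is 1.74 ± 0.59 lower than at 24 hours (adjusted p = 0.022; not called with quantile normalization at -1.25, with centring at -1.23 or without replicate 3 of day 14 at -1.61). At 6 hours Cox4i2 had 149, 19.8, 402, 193 and 540, which overlapped the non-irradiated arrays, and it did not pass as higher there. The 12 mural markers, pericyte and smooth muscle genes, had a mean log2 signal of 7.71 in non-irradiated cells and 8.80 at 6 hours. It was 9.31 at 24 hours and 7.61 at day 14. The part of mural cells in the change of Cox4i2 was not tested.

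Cox6b2, best known as the testis form of subunit VIb, was the single gene of the 90 called higher at 6 hours, lower at 24 hours and higher at day 14. Its signal was 1390, 1720, 1637, 2316 and 1977 in non-irradiated cells, 3919, 3780, 3382, 3083 and 2614 at 6 hours, 1225, 1266, 1044, 1138 and 1310 at 24 hours, and 3355, 3461, 3536, 3198 and 3314 at day 14. The 6 hour and day 14 arrays were all above, and the 24 hour arrays all below, the non-irradiated ones. Cox6b2 rose by 0.90 ± 0.13 at 6 hours (adjusted p = 5.2e-06), fell by 0.58 ± 0.13 at 24 hours (adjusted p = 0.001; -0.20 and not called with arrays centred) and rose by 0.92 ± 0.13 at day 14 (adjusted p = 1.2e-05). The direct differences were -1.48 ± 0.13 for 24 against 6 hours (adjusted p = 3.6e-09) and 1.50 ± 0.13 for day 14 against 24 hours (adjusted p = 7.8e-10). Its widely expressed partner Cox6b1 changed by -0.22 ± 0.10 and -0.14 ± 0.10 at 6 and 24 hours, neither of which passed, and rose by 0.58 ± 0.10 at day 14 (adjusted p = 0.00021).

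Cox7a2l, a factor that joins complexes III and IV into supercomplexes, was the other gene that rose early. It had 7040, 7354, 7377, 6353 and 7253 at 6 hours, 6401, 5656, 5751, 6104 and 6247 at 24 hours and 8349, 7860, 7550, 7645 and 7138 at day 14, against 5790, 5235, 5405, 5182 and 6093 in non-irradiated cells. The 6 hour and day 14 arrays lay above all non-irradiated arrays. The rises were 0.35 ± 0.07 at 6 hours (adjusted p = 0.00037) and 0.48 ± 0.07 at day 14 (adjusted p = 2.7e-05). Its relative Cox7a2, a structural subunit, fell by 0.61 ± 0.12 at 6 hours (adjusted p = 0.00039) and 0.45 ± 0.12 at 24 hours (adjusted p = 0.0062), but not with arrays centred (-0.36 and -0.07), and was at -0.02 ± 0.12 at day 14.

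The forms known from heart and skeletal muscle were dim. Cox7a1 and Cox8b passed in no comparison with non-irradiated cells, and Cox6a2 fell by 0.87 ± 0.30 at day 14 (adjusted p = 0.038), with -0.32 under quantile normalization and 0.03 with arrays centred, neither of them called, and -0.71 to -0.89 in 6 uncalled fits that left out an array. Their widely expressed partners showed mixed courses. Cox6a1 fell by 0.41 ± 0.07 at 6 hours (adjusted p = 2.9e-05) and 0.38 ± 0.07 at 24 hours (adjusted p = 8e-05), which with arrays centred was -0.16 and 0.01, and Cox8a rose by 0.88 ± 0.13 at day 14 (adjusted p = 2.1e-05; 0.21 and not called over the mean of its probe sets). Ndufa4 fell by 0.32 ± 0.09 and 0.36 ± 0.09 at 6 and 24 hours (adjusted p = 0.0066 and 0.0023; -0.07 and 0.02 with arrays centred) and was at -0.01 ± 0.09 at day 14. Ndufa4l2, a relative of Ndufa4 that is induced by low oxygen in several cell types, passed at none of the 3 times against non-irradiated cells.

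The remaining falls of complex IV were at dim probe sets. Cox7c had a signal of 264, 285, 20.4, 184 and 204 at 6 hours, 77.9, 226, 193, 84.2 and 153 at 24 hours and 127, 150, 123, 123 and 107 at day 14, against 433, 511, 425, 323 and 405 in non-irradiated cells. It was lower on every irradiated array, by 1.53 ± 0.49, 1.62 ± 0.49 and 1.72 ± 0.49 on the log2 scale (adjusted p = 0.02, 0.013 and 0.013), but the 6 hour change was -0.84 without replicate 3 of 6 hours, still called, and was not called without probe sets open to cross-hybridization (-1.04), nor the day 14 fall with quantile normalization (-1.13) or centring (-0.82). Cox8c, a testis form, passed the test as lower at 24 hours and day 14 (adjusted p = 0.021 and 0.026). Only 1 and 2 of 5 arrays were above background there, against 5 of 5 in non-irradiated cells, so the size of these falls was not measured. Neither was called with quantile normalization or with arrays centred. The 24 hour fall also went uncalled without replicate 5 of 24 hours, and the day 14 fall without replicate 1, 2 or 4 of the non-irradiated cells or replicate 3 or 4 of day 14. Cox7b2 was at or under background on every irradiated array and on 4 of 5 non-irradiated arrays, so that no fold is given.

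**Figure D5:**
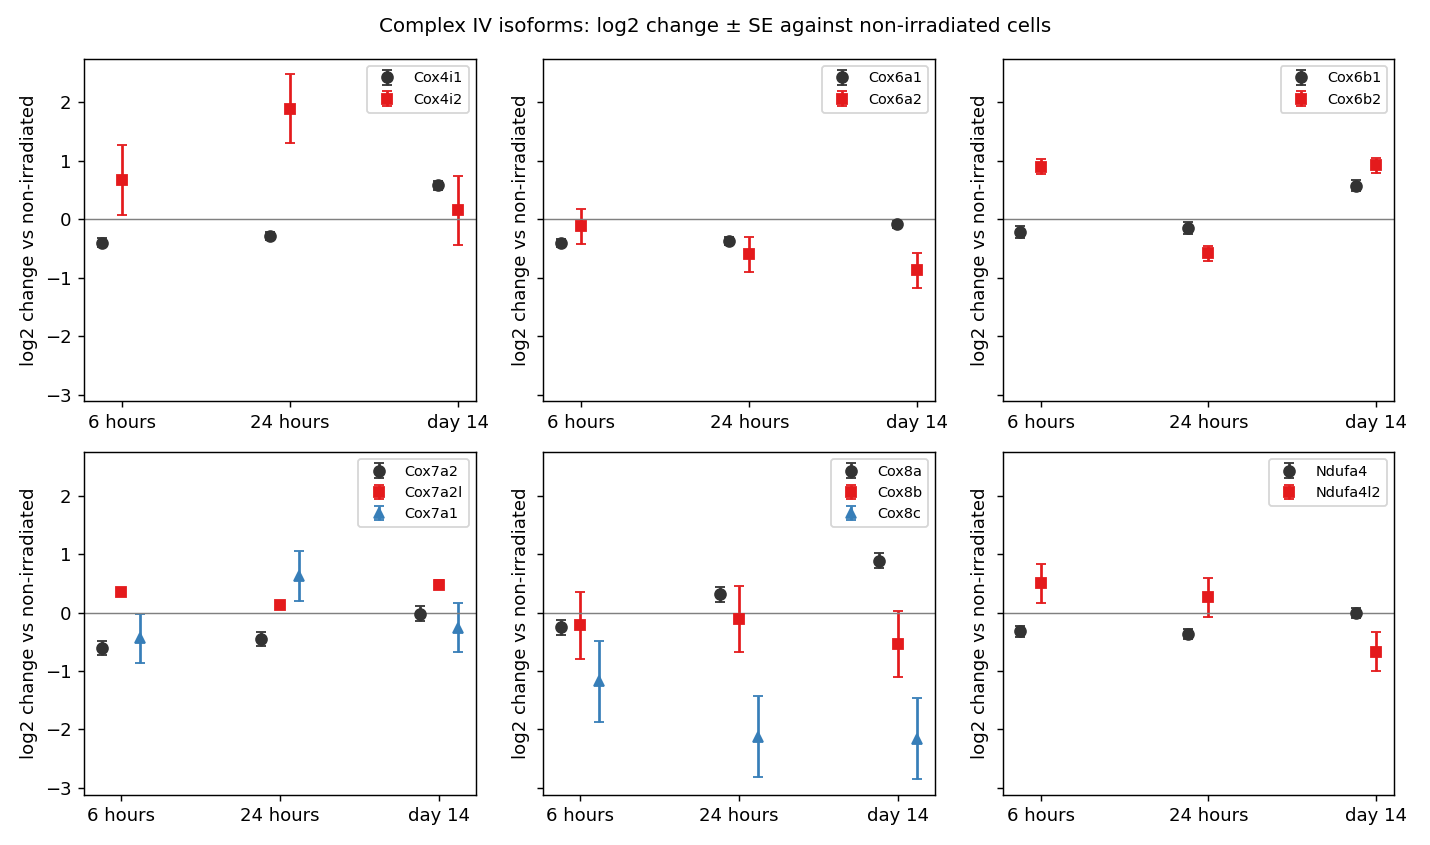
Log2 change ± SE against non-irradiated cells (vertical axis, line at 0) at 6 hours, 24 hours and day 14 for paralogs of complex IV subunits, 1 panel per family. Cox6b2 lies at 0.90, -0.58 and 0.92 while Cox6b1 lies at -0.22, -0.14 and 0.58, and the dim genes Cox4i2, Cox8b and Cox8c have the widest errors.

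In complex V all 17 fitted changes at 6 hours were below 0 and 12 passed. Atp5g3, 1 of the genes for subunit c of the membrane rotor, had a signal of 8673, 7516, 7898, 7627 and 8132 in non-irradiated cells, 4808, 5297, 4574, 3885 and 3857 at 6 hours, 7947, 8110, 8511, 7408 and 8181 at 24 hours, and 11794, 11225, 10831, 10570 and 9425 at day 14. The 6 hour arrays were the lowest and the day 14 arrays the highest without overlap, and the 24 hour arrays overlapped the non-irradiated ones. It fell by 0.84 ± 0.08 at 6 hours (adjusted p = 1.8e-08), was 0.85 ± 0.08 higher at 24 than at 6 hours (adjusted p = 2.7e-08), and rose by 0.43 ± 0.08 at day 14 (adjusted p = 0.00058).

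Atp5g1, which encodes the same mature subunit c, had 4429, 3973, 4119, 4417 and 3974 at day 14, against 2238, 1875, 2152, 2112 and 1582 in non-irradiated cells. This rise of 1.08 ± 0.12 (adjusted p = 3.7e-07) was the largest among the 90 genes at day 14. Over the mean of its probe sets it was 0.33 and not called. At 6 hours Atp5g1 fell by 0.59 ± 0.12 (adjusted p = 0.00044), which did not pass over the mean of its probe sets (-0.17) or with arrays centred (-0.34).

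The catalytic head is made of the alpha subunit Atp5a1 and the beta subunit Atp5b. Atp5b had 5113, 5452, 4526, 4616 and 4785 at 6 hours, against 7927, 7403, 8093, 9259 and 8294 in non-irradiated cells, without overlap. It fell by 0.74 ± 0.08 at 6 hours (adjusted p = 5e-08) and by 0.23 ± 0.08 at 24 hours (adjusted p = 0.027), and rose by 0.35 ± 0.08 at day 14 (adjusted p = 0.0024). With arrays centred the 24 hour change was 0.15, of the opposite sign and not called, and the fall was not called without replicate 4 or 5 of the non-irradiated cells or replicate 4 of 24 hours (-0.19, -0.23 and -0.18). Atp5a1 passed at 24 hours alone, at -0.37 ± 0.08 (adjusted p = 0.00077), and was 0.01 with quantile normalization as well as with centring.

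Atp5pb, subunit b of the stalk that holds the head in place, was low at both early times. Its signal was 2550, 3327, 3326, 3027 and 2679 at 6 hours, 2801, 2473, 2758, 2672 and 2907 at 24 hours and 4975, 5154, 5857, 5266 and 5287 at day 14, against 3998, 3713, 4082, 4126 and 4229 in non-irradiated cells. None of the 3 groups overlapped the non-irradiated arrays. It changed by -0.44 ± 0.09 (adjusted p = 0.00041), -0.57 ± 0.09 (adjusted p = 1.6e-05) and 0.40 ± 0.09 (adjusted p = 0.0023), with early values of -0.19 and -0.18 that did not pass with arrays centred, and a day 14 value of 0.20 that did not pass with quantile normalization. Its window with the YY1 match is shown above. Atp5h, subunit d of the same stalk, fell by 0.24 ± 0.06 and 0.46 ± 0.06 at 6 and 24 hours (adjusted p = 0.0051 and 2.6e-06; 0.01 and -0.08 with arrays centred) and was at -0.10 ± 0.06 at day 14.

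The day 14 change varied with brightness. Over the 9 genes with a mean log2 signal of 13 or more, among them Atp5a1, Atp5h, Cox6a1 and Uqcrb, the median day 14 change was -0.01, against 0.41 over 27 genes from 12 to 13, 0.55 over 20 genes from 11 to 12, 0.71 over 18 genes from 10 to 11, and -0.26 over 16 genes below 10. Of 45 genes with at least 2 probe sets above background, the second brightest gave a change of the opposite sign to the brightest for 7 genes at 6 hours, 13 at 24 hours and 8 at day 14.

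Genes that serve the complexes without belonging to them were read as counts, beside the shares of all genes given above for each time (14.5% lower and 12.9% higher at 6 hours, 13.8% and 15.7% at 24 hours, 13% and 9.47% at day 14). Of 76 genes of the mitochondrial ribosome, which translates the mitochondrially encoded subunits, 29 fell and 1 rose at 6 hours, 12 fell and 5 rose at 24 hours, and 50 rose and 0 fell at day 14. Mrpl34 rose by 1.42 ± 0.21 at day 14 (adjusted p = 2.1e-05), and Mrps6 rose by 1.66 ± 0.09 at 24 hours (adjusted p = 2.9e-13). Of 16 genes of the citric acid cycle and pyruvate dehydrogenase, which feed the chain with NADH and succinate, 7 fell at 6 hours, 3 fell at 24 hours and 10 rose at day 14, with none in the other direction. Idh3a, a subunit of isocitrate dehydrogenase, fell by 0.78 ± 0.13 at 6 hours (adjusted p = 2.8e-05). Of 24 genes of protein import 4 fell and 1 rose at 6 hours, 4 fell and 2 rose at 24 hours, and 13 rose at day 14.

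Genes of electron carriers, here Cyc1, Cycs, Cyct, Etfa, Etfb and Etfdh, followed in part. Of 6 genes, 3 fell at 6 hours, 1 rose and 1 fell at 24 hours and 4 rose at day 14. Cyc1, the cytochrome c1 of complex III, whose symbol lies outside the rule, changed by -0.64 ± 0.13, -0.43 ± 0.13 and 0.62 ± 0.13 at 6 hours, 24 hours and day 14 (adjusted p = 0.00032, 0.011 and 0.00092). Among 37 assembly factors outside the rule 4 fell at 6 hours, 4 fell at 24 hours and 5 rose at day 14, shares that lay near those of all genes. In the opposite direction there was 1 gene at each early time and 0 at day 14, below the shares of all genes. Of 12 genes of coenzyme Q synthesis, 3 rose and 3 fell at 6 hours, 2 fell at 24 hours and 1 rose at day 14.

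Regulators were counted in the same way. Of 8 nuclear regulators 2 fell at 6 hours, 1 fell at 24 hours, and 1 rose and 1 fell at day 14. At 6 hours Nrf1 fell by 1.03 ± 0.25 (adjusted p = 0.0029) and the coactivator Ppargc1b by 1.19 ± 0.38 (adjusted p = 0.02). At day 14 Yy1 rose by 0.32 ± 0.10 (adjusted p = 0.019) and the nuclear receptor Esrra fell by 1.91 ± 0.40 (adjusted p = 0.0012). Of 13 genes of mitochondrial DNA maintenance and transcription 6 fell at 6 hours, 4 fell at 24 hours, and 1 rose and 1 fell at day 14. Tfam, which packages and transcribes mitochondrial DNA, fell by 1.16 ± 0.24 at 6 hours (adjusted p = 0.00047) and rose by 1.00 ± 0.24 at day 14 (adjusted p = 0.0038).

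Carriers and glycolysis genes were less uniform. Of 10 genes of carriers and coupling 1 rose and 3 fell at 6 hours, and 1 rose and 4 fell at 24 hours. At day 14 4 of them rose and 0 fell. The 1 gene that rose at each early time was Slc25a4. Slc25a4, an ADP/ATP carrier that exports ATP from mitochondria, rose by 0.77 ± 0.11 at 6 hours, 1.35 ± 0.11 at 24 hours and 0.67 ± 0.11 at day 14 (adjusted p = 8.5e-06, 8.3e-10 and 0.00016). Atpif1, the inhibitor of ATP hydrolysis by complex V, fell by 0.86 ± 0.07 at 6 hours and 1.05 ± 0.07 at 24 hours (adjusted p = 5.5e-10 and 1.2e-11). Of 17 glycolysis genes 3 rose and 6 fell at 6 hours, 7 rose and 4 fell at 24 hours, and 6 rose at day 14. Pklr, the pyruvate kinase of liver and red cells, fell by 3.40 ± 0.29 at 6 hours and fell by 4.77 ± 0.29 at 24 hours (adjusted p = 1.5e-09 and 2.4e-12), as the erythroid markers did.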

How the data were processed

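The authors deposited 1 table of linear probe set intensities, 1 column for each of 20 Affymetrix arrays. Per the labels' protocols, total RNA from a Qiagen RNeasy micro kit was labelled with biotin after amplification by the NuGEN Ovation V2 system. The software named in the submitters' processing notes is Transcriptome Analysis Console and Affymetrix Expression Console. Their versions and the summarization method are not given in the sources used here. Each deposited intensity column has a mean of 500 after trimming 2% at each end, as read from the values. The number of arrays limits the precision.

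The platform's annotation gave a single symbol to 34945 of 45101 probe sets and several symbols to 932. It left 9160 unnamed here, and the last 64 were controls. Each gene was represented by its single-symbol probe set that was brightest on average across the 20 arrays, giving 18193 genes with no filter on low signals. Intensities were taken as log2(signal + 1). The 4 groups were fitted in 1 model with limma 3.58.1 under R 4.3.3, using lmFit and an eBayes step that allows for a trend with intensity. The calls were adjusted over all genes by the Benjamini-Hochberg method. The background of an array was the 95th percentile of its 27 bacterial control probe sets, from 17.5 to 51.5.

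Other settings tried were quantile normalization, centring on array medians, dropping dim genes (under the 40th percentile by mean signal), averaging the probe sets of a gene, dropping those open to cross-hybridization (names ending in x_at or s_at), adding 16 in place of 1, no intensity trend, the 2 compared groups alone, the replicate number as a block, and each array left out in turn. Arrays with the same replicate number did not deviate together (correlations of deviations from the group means between -0.067 and 0.049), so the numbers do not pair the samples.

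The genes, the lists and the tests were chosen with earlier results of these data known. Named genes were, per comparison, up to 5 called genes with the largest rise and 5 with the largest fall, the called gene of each complex with the largest change, the complex II genes, the paralogs of complex IV and the core subunits. The genes given with values for every array were picked from these after their values were seen. For each list of other pathway genes the called genes with the largest change were to be named, and Cyc1, Tfam and Slc25a4 at other times were added after seeing their values. On simulated data of 18193 genes, made for the 6 hour comparison, the model was tested. It recovered 14.9% of genes changed 1.5-fold, 41.8% of those changed 2-fold and 68.2% of those changed 4-fold, and 5 of 88 calls were false. Only 67, 67 and 66 genes were changed at these folds, whereas 4983 genes were called in the measured 6 hour comparison. The adjustment over all genes depends on that number, so these rates do not describe the recovery in the measured data. Plots were made with matplotlib 3.10.9 under Python 3.11.15.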

Additional observations from a re-analysis of the deposited data

Results flagged for a closer look

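Among 208 sets of 5 arrays checked for a lone array, 11 had a lowest or highest array set far apart from the other 4, and chance alone gives this for about 1 set in 20. At 6 hours Ndufaf1 was at 1.55 on replicate 5 (61.3 to 143 on the others), Cox7c at 20.4 on replicate 3 (184 to 285) and Ndufa3 at 2467 on replicate 5 (4660 to 5178). At 24 hours Sdha was at 6777 on replicate 4 (7531 to 7806) and Ndufs1 at 1404 on replicate 2 (1029 to 1091). At day 14 Cox8a was at 3735 on replicate 1 (2916 to 3124) and Ndufs5 at 1696 on replicate 3 (2005 to 2034). In non-irradiated cells Sdhd was at 3660 on replicate 1 (6794 to 7508), Uqcrc1 at 1236 on replicate 1 (1362 to 1402), Ndufaf5 at 99.7 on replicate 5 (324 to 393) and Ndufv3 at 2814 on replicate 2 (4270 to 4904).

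Among the genes given with their values, the change of 5 against non-irradiated cells passed at a pair of neighbouring times with opposite signs, and the difference between those times was itself tested in limma. Cox6b2 was called higher at 6 hours and lower at 24 hours, with a difference of -1.48 for 24 against 6 hours, and its difference for day 14 against 24 hours was 1.50. The other 4 of these were called lower at 24 hours and higher at day 14, with a difference for day 14 against 24 hours of 0.98 for Ndufb9, 0.96 for Atp5pb, 0.87 for Cox4i1 and 0.58 for Atp5b. The adjusted p of these 6 differences was at most 1.4e-06. The genes were picked for called changes of opposite sign, so small p-values here follow from the choice and add no support. Centring on array medians turned the 24 hour change of Cox4i1 to 0.10 and of Atp5b to 0.15, and for Ndufb9, Atp5pb and Cox6b2 it left falls at 24 hours that were not called (-0.20, -0.18 and -0.20). Of all 90 genes 8 were called lower at 24 hours and higher at day 14, namely Ndufb9, Atp5pb, Cox4i1, Atp5b, Cox6b2, Ndufa10, Uqcr10 and Uqcrh. The share of all genes called in both ways was not counted.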

How the results depend on the processing

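Centring each array on its median moved the most results. The counts against non-irradiated cells became 6 higher and 11 lower at 6 hours, 27 higher and 1 lower at 24 hours, and 78 higher and 1 lower at day 14, with median changes of -0.13, 0.24 (opposite in sign to the reported value) and 1.31. For 24 against 6 hours 1 gene was lower and the median was 0.30, and for day 14 against 24 hours 0 were lower and the median was 1.06. At 24 hours it turned the medians of complexes I to V to 0.28, 0.25, 0.071, 0.10 and 0.19, and the changes of Sdha (0.037), Cox4i1 (0.10), Cox6a1 (0.0071), Ndufa4 (0.020), Atp5a1 (0.011) and Atp5b (0.15). It also turned Atp5h at 6 hours (0.0075), Cox6a2 at day 14 (0.026) and the complex IV median at day 14 (0.88) and for 24 against 6 hours (0.093).

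With quantile normalization 2 genes were lower at day 14 and the median was 0.34, and for day 14 against 24 hours 0 were lower and the median was 0.48. It turned Atp5a1 at 24 hours (0.014), Atp5h for 24 against 6 hours (0.086) and the complex IV median at day 14 (0.24) and for 24 against 6 hours (0.065). With the probe sets of a gene averaged, 2 genes were lower for 24 against 6 hours and the median for day 14 against 24 hours was 0.46. This turned Ndufa3 (-0.27) and Ndufb9 (-0.56) at day 14, Atp5g1 (-0.24), Uqcrb (0.27) and Atp5h (0.077) for 24 against 6 hours, and the complex IV median at day 14 (0.0092) and for 24 against 6 hours (0.061). Without probe sets open to cross-hybridization 8 genes were lower at day 14, the median was 0.46, and the medians of complex II at 24 hours (0.022) and complex III for 24 against 6 hours (-0.0079) turned. Without dim genes 3 were lower at day 14, with fewer genes tested. With no intensity trend 2 were lower for 24 against 6 hours. With the compared groups alone 7 were higher at 24 hours, 16 higher and 3 lower for 24 against 6 hours, and 5 lower for day 14 against 24 hours. For all of these the cause was not tested.

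Leaving out 1 array at a time gave 2 to 4 higher at 6 hours, 2 to 5 higher at 24 hours, 2 to 5 lower at day 14, 3 to 9 lower for 24 against 6 hours and 1 to 2 lower for day 14 against 24 hours. The complex IV median for 24 against 6 hours ran from -0.048 (without replicate 2 of 6 hours) to 0.0097 (without replicate 1) and was also above 0 without replicate 3. With the replicate number as a block, although the numbers do not pair the samples, 43 genes were lower at 6 hours and 49 higher at day 14, and of 225 results for named genes the call changed for 1, the 24 hour fall of Sdhd (-0.49). Over the fits with 1 array left out, 4338 results for named genes kept their call and direction, 126 lost the call and 36 gained it. Adding 16 in place of 1 changed none of the counts by over 1.5 times. The complex IV means without Cox7b2 and Cox8c were an alternative chosen after seeing the data.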
